A study of Canis lupus familiaris with 12 samples.

Results

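Carprofen was compared with piroxicam in Mi/CMM1, a line of canine melanoma cells that came from the mouth. The comparison used the 3 arrays labelled carprofen and the 3 labelled piroxicam, 6 of the 12 arrays in the series, chosen by their titles. The other 6 arrays hold cells without treatment and cells given robenacoxib, 3 each, and they entered the model so that all groups shared 1 estimate of spread. All groups are the same line, for which the labels name no engineered change, and no normal melanocytes were analysed here. The sample labels give piroxicam at 116 µM and carprofen at 779 µM for 6 h. The treatment protocol has these doses the other way round, 779 µM for piroxicam and 116 µM for carprofen, and a time of 24 h. Which version is right was not settled, and in both the doses of the drugs differ, so that drug and dose cannot be told apart. Per the series text each dose was the drug's own half-maximal inhibitory concentration, and the replicates were biological. How the cultures were separated is not said, so the p-values measure the spread between these arrays.

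Both compounds are nonsteroidal anti-inflammatory drugs. They block cyclooxygenases, the enzymes encoded by PTGS1 and PTGS2 that turn arachidonic acid into the precursor of prostaglandins and thromboxanes. Prostaglandin E2, made from that precursor by synthases such as PTGES, acts through the receptors PTGER1 to PTGER4 and in many tumours is tied to growth, survival and vessel formation. Piroxicam is an oxicam, an enolic acid, and carprofen is an arylpropionic acid that carries a carbazole ring. At concentrations that slow cell growth, drugs of this class are also known to act on targets other than the cyclooxygenases.

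Messenger RNA was measured with one-colour dog arrays, and a level is the log2 processed signal minus the array's own 75th percentile. A level can be compared between arrays for 1 probe and not between probes. Between 70.6% and 80.1% of probes were well above background on the carprofen arrays and between 66.2% and 72.8% on the piroxicam arrays. The levels of 2 arrays of the same drug correlated at 0.9976 to 0.9988 across probes, and those of arrays of different drugs at 0.9945 to 0.9962. Slide 2 held carprofen 2 and 3 with piroxicam 1 and 2. Carprofen 1 lay on slide 1 with the controls, and piroxicam 3 lay on slide 3 with the robenacoxib arrays. Of the melanocyte markers with a named probe, MITF was well above background on all arrays of both drugs and of the control, whereas TYR, the enzyme of melanin synthesis, and EDNRB were not on any of these 9 arrays. SLC45A2, RAB27A and KITLG were also well above background on all 9. MC1R, ASIP and MLPH were so on all 3 control arrays, on 2 or 3 carprofen arrays and on no piroxicam array. KIT was so on 2 carprofen arrays and 1 control array.

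The drugs left many small differences and few large ones. Of 31996 probes tested, 5915 were higher with carprofen (18.5%) and 6090 were lower (19%) at an adjusted p below 0.05 by limma with Benjamini-Hochberg adjustment. These are the probes described as called here. The median size of a called difference was 0.24 on the log2 scale, or 1.18-fold. A difference of at least 1.5-fold was called at 1083 probes higher with carprofen and 253 lower. At least 2-fold were 280 probes higher and 36 lower, 316 in all (0.988%). At 15093 of the 31996 tested probes, called or not, the carprofen arrays did not overlap the piroxicam arrays. A lack of overlap is therefore common here.

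Names were available for 614 tested genes, each represented by the tested probe of highest mean level. Of these, 78 were higher with carprofen (12.7%) and 127 lower (20.7%), and 409 were not called. Their median difference was -0.03, against 0.01 over all tested probes. With slide as a block, 14.6% of probes were called higher and 15.9% lower, and 61 of the 78 genes and 103 of the 127 kept both call and direction. That block takes the difference between the drugs from slide 2. For each gene list below the count of called members stands against these 12.7% higher and 20.7% lower among all named genes. Of the 78 genes and probes examined one by one, 9 lost their call with the block and 31 lost it on slide 2 alone, where 2 residual degrees of freedom remain, and 0 of the called ones changed direction in either.

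How the calls divided between higher and lower changed with the scaling. The spiked-in control transcripts stood 1.37 to 1.40 above the 75th percentile on the carprofen arrays, 1.55 to 1.59 on the piroxicam arrays and 1.71 to 1.79 on the control arrays. The groups did not overlap in this measure. Scaling to these transcripts in place of the 75th percentile adds 0.17 to every difference, after which 13526 probes were higher and 1324 lower, and 91.1% of calls were higher with carprofen in place of 49.3%. Of the named genes, 200 were then higher and 27 lower. Scaling to each array's median gave 3836 higher and 6255 lower (38% higher), and 48 and 126 of the named genes. All differences given here are therefore relative to the 75th percentile. A difference between the drugs that lies between -0.17 and 0 changes direction with the spike-in scaling. A difference of carprofen from control shifts by more.

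Dim probes lay above bright ones in this comparison. When the tested probes were split by mean level into 4 equal sets, the median difference was 0.13 in the dimmest set, then 0.03, -0.01 and -0.05 in the brightest. In the dimmest set 989 probes were called higher and 162 lower, and in the brightest set 1114 were called higher and 2632 lower. Of the named genes, 17 of 161 were higher and 2 lower in the dimmest set, and 16 of 177 higher and 60 lower in the brightest. The shares over all named genes are therefore not matched to the level of a list's members. Of the 280 probes at least 2-fold higher with carprofen, 225 were in the dimmest set, and 121 were not well above background on any piroxicam array. Restricted to probes well above background on all 6 arrays, 93 were at least 2-fold higher and 29 lower. After another background correction, normexp with quantile normalization, the medians were -0.00, -0.02, -0.01 and -0.01 and the dimmest set held 538 higher and 298 lower calls. The part of background signal in the larger differences was not tested further. Detection is given below for genes of the naming rule that were not well above background on all 6 arrays.

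**Figure D1:**
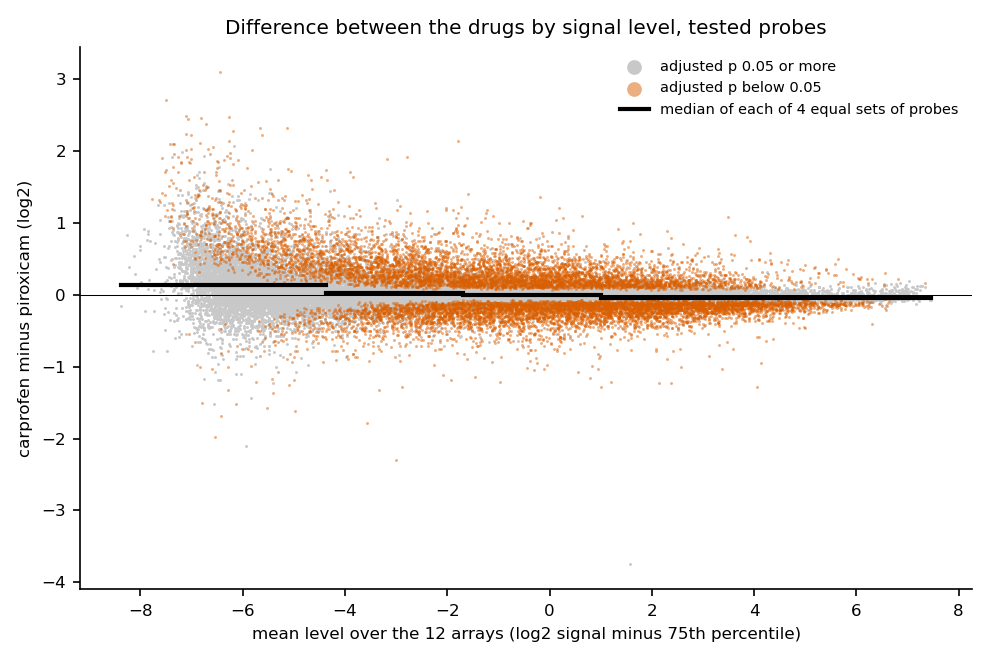
Difference between carprofen and piroxicam (log2, vertical) against the mean level over the 12 arrays (log2 signal minus the 75th percentile, horizontal) for the 31996 tested probes, with called probes in orange and black bars at the median of each of 4 equal sets. The bars fall from 0.13 in the dimmest set to -0.05 in the brightest, and most differences of at least 2-fold are at the dim end and above 0.

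Differences called on slide 2 mostly had the same sign in the arrays outside it. A fit to the 4 arrays of slide 2 alone called 2596 probes higher and 1985 lower. The difference between carprofen 1 and piroxicam 3, which were not in that fit and lay on separate slides, had the same sign at 96.6% of these probes, against 75% of all tested probes. It also holds any difference between slides 1 and 3. The shift between dim and bright probes was removed from neither set of arrays, and its part in the shared signs was not tested. Of 83 named genes called on slide 2, 79 had the same sign outside it. The exceptions were CYGB, GPX2, NCAM1 and SLC5A1, none of them called in the fit to all arrays. CYGB, a globin, differed by -0.38 on slide 2 and by 1.58 outside it, where carprofen 1 stood at -4.46 against -6.31 and -6.39 on the other carprofen arrays.

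**Figure D2:**
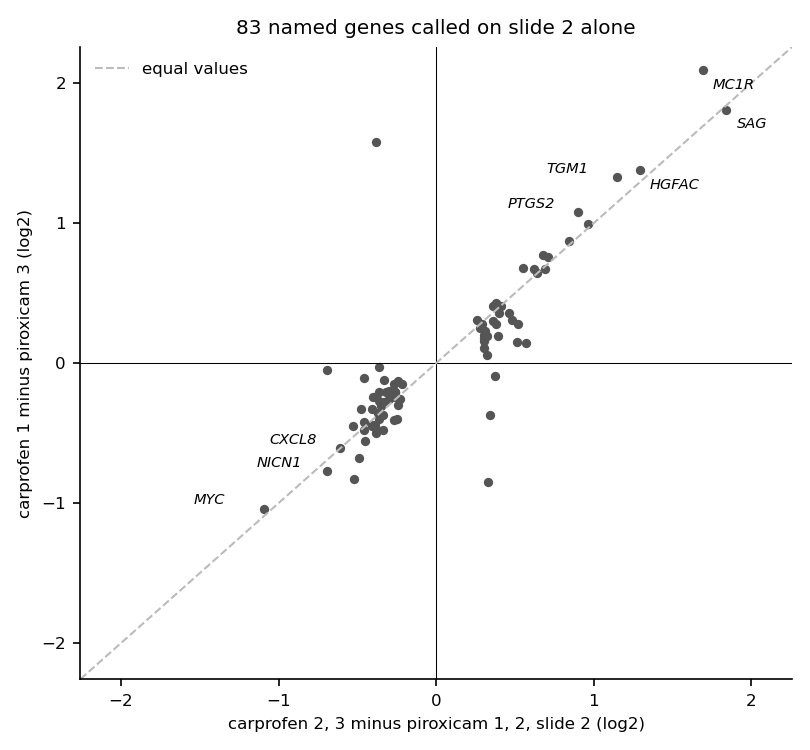
Difference on slide 2 (carprofen 2 and 3 minus piroxicam 1 and 2, log2, horizontal) and outside it (carprofen 1 minus piroxicam 3, log2, vertical) for the 83 named genes called on slide 2 alone, with a dashed line at equal values. MYC lies at -1.09 and -1.04, TGM1 at 1.15 and 1.33, and 4 genes lie in the quadrants of opposite sign.

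In the list of cyclooxygenase and prostanoid synthesis genes, PTGS2 was higher with carprofen than with piroxicam and PLA2G7 was lower. PTGS2, the inducible cyclooxygenase, stood at -2.73, -2.78 and -2.78 on the carprofen arrays and at -3.66, -3.70 and -3.81 on the piroxicam arrays. Every carprofen array was above every piroxicam array, and the controls, at -3.25, -3.18 and -3.27, lay between. The difference was 0.96 on the log2 scale (SE 0.05, n = 3 arrays a group), or 1.95-fold, with a limma adjusted p = 7.84e-07, and 0.90 with slide as a block. PTGS1, the constitutive cyclooxygenase, was dim and was not called. It read -6.54, -6.09 and -5.89 with carprofen and -6.56, -6.21 and -3.92 with piroxicam. The estimate of -0.61 had a 95% interval of -1.94 to 0.71 and rested on piroxicam 3: with slide as a block it was 0.39.

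PLA2G7, a phospholipase that breaks down platelet-activating factor, was among the bright genes. Its levels were 3.03, 3.07 and 2.99 with carprofen and 3.40, 3.44 and 3.47 with piroxicam, without overlap. It was lower with carprofen by 1.33-fold (difference -0.41, SE 0.03, adjusted p = 2.32e-05), and all 3 of its probes were called lower, from -0.41 to -0.32. With normexp and quantile normalization the difference was -0.27. The prostaglandin E synthase PTGES was not called (0.17, 95% interval -0.08 to 0.41), nor was the prostaglandin D synthase PTGDS. In all, 1 of the 5 tested genes of this list was higher and 1 lower, and their median difference of -0.27 was -0.09 with spike-in scaling. The lower one was PLA2G7, which acts on platelet-activating factor, so no cyclooxygenase or prostaglandin synthase was called lower.

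Of 5 tested genes of prostanoid reception and uptake, 1 was higher and 1 lower. PTGER2, a receptor for prostaglandin E2 that raises cyclic AMP, read -5.80, -5.76 and -5.87 with carprofen and -6.37, -6.79 and -7.03 with piroxicam. The groups did not overlap, but only 1 of the 3 piroxicam arrays was well above background there. The difference was 0.92 (SE 0.16, adjusted p = 0.00145) and fell to 0.17 (adjusted p = 0.119) with normexp and quantile normalization, which ends the call. PTGER4, the other receptor of this type that was measured, differed by -0.05 with a 95% interval of -0.15 to 0.05. PTGFR, the receptor for prostaglandin F2α, was lower by 0.23 (adjusted p = 0.00196) and differed by -0.16 with normexp and quantile normalization (adjusted p = 0.0575). PTGDR2 and the transporter SLCO2A1 were not called.

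The most negative called difference of a named gene was that of MYC. MYC, a transcription factor that drives growth and entry into the cell cycle, stood at 0.03, -0.01 and 0.04 on the carprofen arrays and at 1.11, 1.09 and 1.07 on the piroxicam arrays. The controls, at 0.42, 0.47 and 0.47, lay between groups that were far apart relative to their spread. MYC was 2.1-fold lower with carprofen (difference -1.07, SE 0.03, adjusted p = 1.12e-07), the only named gene at least 2-fold lower, and it differed by -1.09 with slide as a block and by -0.90 with spike-in scaling. NR4A1, an orphan nuclear receptor induced early after stimulation, went the other way. It read -4.49, -4.19 and -4.30 with carprofen and -5.03, -5.38 and -5.48 with piroxicam, a difference of 0.97 (SE 0.21, adjusted p = 0.00536) that was 0.47 with normexp and quantile normalization and lost its call with normexp scaled to the 75th percentile. The third tested gene of this list, FOSB, was not called.

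Of 3 tested cell cycle genes 2 were lower with carprofen, and of 2 tested genes of p53 and cell cycle inhibition both were higher. CCND1, the cyclin D1 gene of early G1, read 2.91, 2.90 and 2.92 with carprofen and 3.17, 3.15 and 3.21 with piroxicam. BIRC5, which encodes survivin, a protein of mitosis and an inhibitor of apoptosis, read 2.71, 2.66 and 2.67 against 2.96, 3.03 and 3.00. Neither gene overlapped between the drugs, and the differences were -0.26 (SE 0.03, adjusted p = 6.54e-05) and -0.32 (SE 0.04, adjusted p = 0.000272). With spike-in scaling they were -0.09, which ends the call of CCND1, and -0.14, with which BIRC5 kept its call. In both, the piroxicam arrays stood near the controls, at means of 3.17 and 3.14 for CCND1 and of 2.99 and 3.01 for BIRC5. CCNB3 was not called. Of the inhibitors, CDKN1B, which holds cyclin-dependent kinases in check, was higher by 0.29 (adjusted p = 0.00025), and both of its probes were called higher. That call ended with normexp and quantile normalization, at 0.14 (adjusted p = 0.119). MDM2, the ubiquitin ligase of p53, was higher by 0.12 (adjusted p = 0.0221) and lost its call with slide as a block (adjusted p = 0.146).

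**Figure D3:**
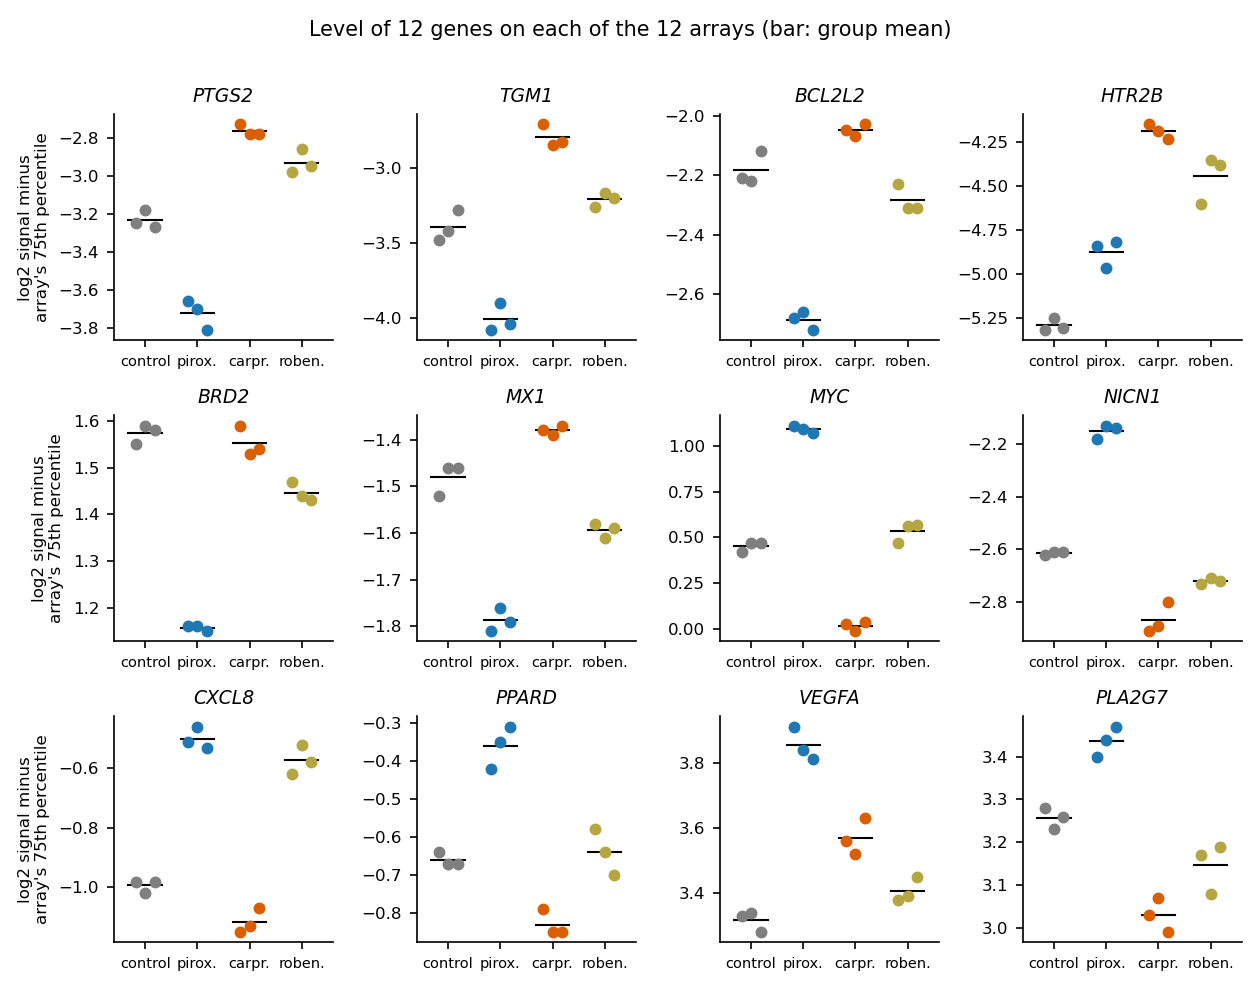
Level (log2 signal minus the array's 75th percentile, vertical) of 12 genes on each of the 12 arrays by group, with a black bar at the group mean; each panel has its own axis. In the first 6 panels the carprofen arrays lie above the piroxicam arrays and in the last 6 below them, with no overlap in any panel, from PTGS2 at means of -2.76 and -3.73 to PLA2G7 at means of 3.03 and 3.44. Over all 31996 tested probes 15093 did not overlap, and the part of the naming rule that took the largest differences required it.

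Of 12 tested apoptosis regulators, 4 were higher with carprofen and 2 lower. The 4 that were higher include 3 members of the BCL2 family that protect cells from death, BCL2L2, BCL2 and MCL1, and the initiator caspase CASP8. BCL2L2 read -2.05, -2.07 and -2.03 with carprofen and -2.68, -2.66 and -2.72 with piroxicam, without overlap and with the controls at a mean of -2.18. The difference of 0.64 (SE 0.04, adjusted p = 2.2e-06) is 1.55-fold. MCL1 differed by 0.17 (adjusted p = 0.00911) and BCL2 by 0.19 (adjusted p = 0.00227), and both lost their call with normexp and quantile normalization (adjusted p = 0.0656 and 0.0747). CASP8 differed by 0.22 (adjusted p = 0.00885), and by 0.10 with normexp and quantile normalization (adjusted p = 0.307).

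The apoptosis genes that were lower were BAX, whose product permeabilizes mitochondria, and CASP9, the caspase of the apoptosome. BAX read 1.52, 1.36 and 1.47 with carprofen and 1.73, 1.71 and 1.73 with piroxicam, and both of its probes differed by -0.28 (adjusted p = 0.000393 for the brighter one). The call of BAX ended with spike-in scaling, at -0.11, and on slide 2 alone (adjusted p = 0.0506). CASP9 differed by -0.20 (adjusted p = 0.00174), and by -0.03 with spike-in scaling. BAK1, BCL2L1, BAD, DIABLO, BIRC2 and BIRC3 were not called. The median of the 12 genes was -0.01, and 0.16 with spike-in scaling.

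Of 14 tested cytokine genes and their partners, CXCL8 was the only one called. CXCL8, the neutrophil chemokine interleukin 8, read -1.15, -1.13 and -1.07 with carprofen and -0.51, -0.46 and -0.53 with piroxicam. The carprofen arrays lay just below the controls, at -0.98, -1.02 and -0.98, and the piroxicam arrays well above them. The difference was -0.61 (SE 0.03, adjusted p = 2.23e-06), or 1.53-fold, and all 4 of its probes were called lower, from -0.61 to -0.33. TNF differed by -0.01 (95% interval -0.28 to 0.25). IL5, the growth factor of eosinophils, is not in that list and was lower by 0.50 (adjusted p = 1.32e-05), at -3.01, -3.07 and -3.15 against -2.61, -2.55 and -2.56.

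In the interferon list, 1 of 6 tested genes was higher with carprofen. MX1, an antiviral GTPase induced by interferon, read -1.38, -1.39 and -1.37 with carprofen and -1.81, -1.76 and -1.79 with piroxicam. Both of its probes differed by 0.41 (adjusted p = 3.24e-06 for the brighter one), and the groups did not overlap. The oligoadenylate synthetases OAS1, OAS2 and OAS3 were not called.

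In the list of hypoxia and glycolysis genes, 3 of 4 were lower with carprofen: VEGFA, ADM and VHL. VEGFA, the main growth factor of vessels, read 3.56, 3.52 and 3.63 with carprofen and 3.91, 3.84 and 3.81 with piroxicam. Both groups were above the controls, whose mean was 3.32, and they did not overlap. VEGFA differed by -0.28 (SE 0.04, adjusted p = 0.000388), and its second probe by -0.86. Its call ended with spike-in scaling, at -0.11, and on slide 2 alone (adjusted p = 0.0606). ADM, the vasodilator adrenomedullin, differed by -0.14 (adjusted p = 0.00364), and by 0.03 with spike-in scaling. VHL, which marks hypoxia-inducible factors for degradation, differed by -0.19 (adjusted p = 0.0259) and lost its call with slide as a block (adjusted p = 0.128). GAPDH, of glycolysis, differed by 0.10 (95% interval -0.07 to 0.26), and none of its 7 probes was called.

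Of 5 tested genes in the list of nuclear receptors and energy metabolism, 4 were lower and none higher. PPARD, a fatty acid receptor, read -0.79, -0.85 and -0.85 with carprofen and -0.42, -0.35 and -0.31 with piroxicam. It was lower by 0.47 (SE 0.04, adjusted p = 1.71e-05), and its second probe differed by -0.37. RARA, a retinoic acid receptor, was lower by 0.42 (adjusted p = 0.00138), at -2.65, -2.78 and -2.77 against -2.41, -2.31 and -2.20. Its second probe differed by 0.39 and was not called. The other called members, ESRRA and the mitochondrial carrier UCP2, differed less: UCP2 by -0.14, with an adjusted p of 0.197 with slide as a block and a difference of 0.03 with spike-in scaling. The median of the list was -0.14, and 0.03 with spike-in scaling.

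The lysosome list had 19 tested genes, of which 9 were lower with carprofen and 3 higher, beside 20.7% lower and 12.7% higher over all named genes. The lower ones include CTSA, CTSD, GALNS, GLB1, ARSA, SGSH, FUCA1 and NPC1, enzymes and a transporter of breakdown within the lysosome. GALNS, a sulfatase of keratan sulfate, read -2.99, -2.97 and -2.86 with carprofen and -2.50, -2.51 and -2.55 with piroxicam, where the piroxicam arrays stood with the controls (mean -2.49). It was lower by 0.42 (SE 0.05, adjusted p = 9.8e-05). NPC1, which exports cholesterol from the lysosome, read 0.99, 0.91 and 0.91 against 1.21, 1.25 and 1.20, and here the carprofen arrays stood with the controls (mean 0.94). It was lower by 0.29 (adjusted p = 0.000218), on both probes, and by 0.11 with spike-in scaling, which ends the call.

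The higher genes of the lysosome list were CTSK, CTSS and CLN3. CTSS, a cysteine protease best known from antigen-presenting cells, read -4.34, -4.30 and -4.31 with carprofen and -5.10, -4.92 and -5.10 with piroxicam. The difference was 0.72 (SE 0.07, adjusted p = 5.11e-05), and 0.32 with normexp and quantile normalization. The median of the 19 genes was -0.12, and 0.05 with spike-in scaling. With slide as a block, 6 of the 9 lower genes and 2 of the 3 higher ones kept their call.

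Of 16 tested genes of endoplasmic reticulum translocation and folding, 4 were lower and none higher. SPCS2 and SEC11C, subunits of the signal peptidase, differed by -0.20 (adjusted p = 0.000789) and -0.19 (adjusted p = 0.000573), with no overlap between the drugs. With spike-in scaling these differences were -0.03 and -0.02. HSP90B1, a chaperone of the reticulum, differed by -0.11 (adjusted p = 0.0185), and by 0.06 with spike-in scaling. SPCS2, SEC11C and HSP90B1 lay in the brightest set, where 60 of 177 named genes were lower and 16 higher. The median of the list was -0.06, and 0.11 with spike-in scaling.

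No gene of the heat shock list was called. The tested members were HSPA4, HSPB1 and HSPB8, and their differences ranged from 0.02 to 0.08. HSP70, the stress-inducible chaperone, was added to the named genes after its values were seen, since the array has it under this symbol. It read 3.31, 3.27 and 3.24 with carprofen and 3.24, 3.22 and 3.24 with piroxicam, and the controls read 2.79, 2.88 and 2.90. The drugs differed by 0.04 (95% interval -0.04 to 0.12), and none of its 4 probes was called.

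Of 9 tested metallothionein, iron and antioxidant genes, 5 were lower with carprofen: MT1E, MT2A, CAT, TXNRD1 and TFRC. TFRC, the transferrin receptor that takes up iron, differed by -0.23 (adjusted p = 0.00454), and by -0.05 with spike-in scaling, which ends the call. MT2A, a metal-binding protein, differed by -0.14 (adjusted p = 0.0444) and lost its call with slide as a block (adjusted p = 0.207). TXNRD1, the thioredoxin reductase, differed by -0.12 (adjusted p = 0.0229). Both MT2A and TXNRD1 changed direction with spike-in scaling, to 0.03 and 0.05, as did the median of the list, from -0.09 to 0.08.

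Of 11 tested genes of drug and steroid metabolism, 5 were higher with carprofen and none lower, beside 12.7% higher and 20.7% lower over all named genes. Those shares are not matched to level: CYP19A1 lay in the dimmest set, and CYP3A12 and CYP21A2 in the second. Of the named genes there, 17 of 161 were higher and 2 lower in the dimmest set, and 18 of 147 higher and 21 lower in the second. The 5 were CYP2B6, CYP3A12, CYP19A1, CYP21A2 and HSD17B14. All 5 were also called with slide as a block. CYP3A12, a dog drug-metabolizing cytochrome, read -3.98, -3.72 and -3.65 with carprofen and -4.32, -4.07 and -4.37 with piroxicam, a difference of 0.47 (SE 0.11, adjusted p = 0.00685). CYP21A2, the steroid 21-hydroxylase, read -2.87, -2.90 and -2.79 against -3.27, -3.16 and -3.35, a difference of 0.40 (SE 0.06, adjusted p = 0.000778). With normexp and quantile normalization these differences were 0.24 and 0.23, and on slide 2 alone neither gene was called (adjusted p = 0.0644 and 0.0518). CYP19A1, the aromatase, differed by 0.33 (adjusted p = 0.0353), and by 0.12 with normexp and quantile normalization (adjusted p = 0.113). The median of the list was 0.16.

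Of 4 tested ABC efflux transporters, ABCC5 was higher and ABCC1 lower. ABCC5, which exports nucleotides, read 0.97, 1.02 and 0.90 with carprofen and 0.62, 0.58 and 0.67 with piroxicam, a difference of 0.34 (SE 0.03, adjusted p = 6.4e-05). All 3 of its probes were called higher. ABCC1 differed by -0.17 (adjusted p = 0.0061), and by 0.00 with spike-in scaling. The drug efflux pump ABCB1 was not called.

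Among 15 tested ion channels and pumps, 4 were higher and none lower. KCNA5, a voltage-gated potassium channel, read 2.01, 2.14 and 2.26 with carprofen and 1.82, 1.85 and 1.60 with piroxicam, a difference of 0.38 (SE 0.07, adjusted p = 0.00295). CLCN1, the chloride channel of muscle, read -3.87, -3.88 and -3.95 against -4.80, -4.46 and -5.19, a difference of 0.92 (SE 0.20, adjusted p = 0.00534) that was 0.53 with normexp and quantile normalization and lost its call on slide 2 alone (adjusted p = 0.0549). ATP4A, the gastric proton pump, differed by 0.23 (adjusted p = 0.00148). ATP1B1 was the fourth called member. The median of the list was 0.11.

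Of the pigment cell genes, 3 of 7 tested were higher with carprofen and 2 lower. With slide as a block, 0 of these 3 were called higher. MITF, the transcription factor of the melanocyte lineage, read -0.65, -0.71 and -0.66 with carprofen and -0.52, -0.53 and -0.59 with piroxicam. It was lower by 0.13 (adjusted p = 0.00578), and its difference was 0.05 with spike-in scaling. MC1R, the melanocortin receptor, read -5.36, -5.09 and -5.40 with carprofen and -6.95, -6.92 and -7.45 with piroxicam. It was not well above background on any piroxicam array, so its fold is a lower bound of at least 2.47-fold higher with carprofen (adjusted p = 0.0126). The bound sets the brighter group's mean against, on each array, the higher of the probe's own signal and the lowest signal of any probe well above background. With slide as a block the adjusted p of MC1R was 0.081. With normexp and quantile normalization its difference was 0.48 (adjusted p = 0.0313), below that bound, and with normexp scaled to the 75th percentile the call ended.

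MLPH, an adaptor of melanosome transport, was likewise not well above background on any piroxicam array, and its groups overlapped. With slide as a block its adjusted p was 0.0924. KITLG, the ligand of the KIT receptor, differed by 0.14 (adjusted p = 0.0164) and lost its call with slide as a block (adjusted p = 0.122). RAB27A, which carries melanosomes, was the second lower member. In such bulk samples, fewer cells of a kind and less RNA per cell cannot be told apart.

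Of the markers of other cell types, 1 of 4 tested leukocyte markers, 0 of 2 endothelial markers and 2 of 7 fibroblast and muscle markers were called, beside 205 of the 614 named genes. The summed linear signal of 8 leukocyte markers, relative to the 75th percentile, was 0.703 to 0.78 with carprofen and 0.641 to 0.676 with piroxicam, and MS4A1 and FCER1A were not well above background on any of the arrays. CD163, a macrophage scavenger receptor, was the 1 called leukocyte marker of 4 tested. It read -3.07, -3.09 and -3.04 against -3.44, -3.48 and -3.43, a difference of 0.39 (adjusted p = 4.65e-05), and its second probe was not called. The sum of 3 endothelial markers overlapped, at 1.3 to 1.47 and 1.29 to 1.47. That of 9 fibroblast and muscle markers was 65 to 68.6 with carprofen and 68.8 to 72.3 with piroxicam. The part of these differences in the results was not tested.

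TNNI3 and COL1A1 were the called genes of the fibroblast and muscle list. TNNI3, cardiac troponin I, read -4.03, -3.88 and -3.97 with carprofen and -4.89, -4.63 and -4.90 with piroxicam, a difference of 0.85 (SE 0.10, adjusted p = 0.000188) that was 0.44 with normexp and quantile normalization. COL1A1, a chain of type I collagen, differed by -0.18 (adjusted p = 0.000969), and by -0.01 with spike-in scaling. Of 12 collagen and matrix genes, 1 was higher and 4 lower. COL7A1, the anchoring fibril collagen, was higher by 0.19 on the brighter of 2 probes that were both called (adjusted p = 0.00243), and the protease MMP3 was lower by 0.26 (adjusted p = 0.00124), and by 0.09 with spike-in scaling, which ends the call.

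In the epithelial list, TGM1 and CRYGS were higher with carprofen, 2 of 7 tested. TGM1, the transglutaminase that cross-links the cornified envelope of keratinocytes, read -2.71, -2.85 and -2.83 with carprofen and -4.08, -3.90 and -4.04 with piroxicam. The controls, at -3.48, -3.42 and -3.28, lay between, and none of these 3 groups overlapped another. The difference was 1.21 (SE 0.07, adjusted p = 1.61e-06), or 2.31-fold. CRYGS, which encodes a crystallin of the lens, read -3.18, -3.16 and -3.18 against -3.91, -3.79 and -3.95, a difference of 0.71 (SE 0.06, adjusted p = 1.81e-05) that was 0.47 with normexp and quantile normalization. The desmosome genes DSG1 and DSG3 and the tight junction gene OCLN were not well above background on any of the arrays. The summed signal of the 10 epithelial markers was 7.01 to 7.27 with carprofen and 6.88 to 6.98 with piroxicam, and that of the 10 pigment markers was 9.64 to 10.3 and 10.2 to 10.6.

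One of 5 tested serotonin genes was called. HTR2B, a serotonin receptor, read -4.15, -4.19 and -4.23 with carprofen, -4.84, -4.97 and -4.82 with piroxicam and -5.32, -5.25 and -5.31 in the controls. It was higher with carprofen by 0.68 (SE 0.07, adjusted p = 4.41e-05), and by 0.31 with normexp and quantile normalization (adjusted p = 0.0117). HTR1A, another serotonin receptor, was not called and ranged from -4.31 to -2.35 over the piroxicam arrays. MAOB, an enzyme that breaks down amines, was not called (1.07, adjusted p = 0.0735), but was called higher with slide as a block (0.81, adjusted p = 0.0444).

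BRD2, a bromodomain protein that reads acetylated histones and whose gene lies in the major histocompatibility complex, was higher with carprofen. It read 1.59, 1.53 and 1.54 with carprofen and 1.16, 1.16 and 1.15 with piroxicam, and the controls read 1.55, 1.59 and 1.58. The difference was 0.40 (SE 0.02, adjusted p = 2.77e-06), and all 3 of its probes were called higher, from 0.22 to 1.32, the last on a probe not well above background on any piroxicam array. Of 12 tested genes of that region, 2 were higher and 3 lower. DLA-DQB1, a class II antigen-presenting chain, was called higher, but was well above background on 2 carprofen arrays and on no piroxicam array, and is given without a fold. With slide as a block its adjusted p was 0.081, and with normexp and quantile normalization the difference was 0.05 (adjusted p = 0.636). VPS52 was lower by 0.19 on its brightest probe, and 1 of its other probes was called higher, at 0.22.

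Of 11 tested genes in the list of RAB small GTPases of vesicle transport, 1 was higher and 3 lower. The lower ones were RAB8A, RAB27A and VPS52. VPS52 is not itself a RAB gene, and its probes were called in opposite directions. RAB5A, which directs early endosomes, read -0.34, -0.36 and -0.39 with carprofen and -0.60, -0.67 and -0.65 with piroxicam, a difference of 0.28 (adjusted p = 7.74e-05) seen on both probes. RAB8A, of transport to the membrane, was lower by 0.27 (adjusted p = 0.00279), and differed by -0.09 with spike-in scaling and by -0.15 with normexp and quantile normalization (adjusted p = 0.067), each of which ends the call. RHOA, a regulator of the actin cytoskeleton, differed by -0.15 (adjusted p = 0.00114), and by 0.02 with spike-in scaling. RPL27 was the 1 called gene of 3 tested in the ribosomal list, lower by 0.18 (adjusted p = 0.00138), and its difference was -0.10 with normexp and quantile normalization (adjusted p = 0.0992).

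**Figure D4:**
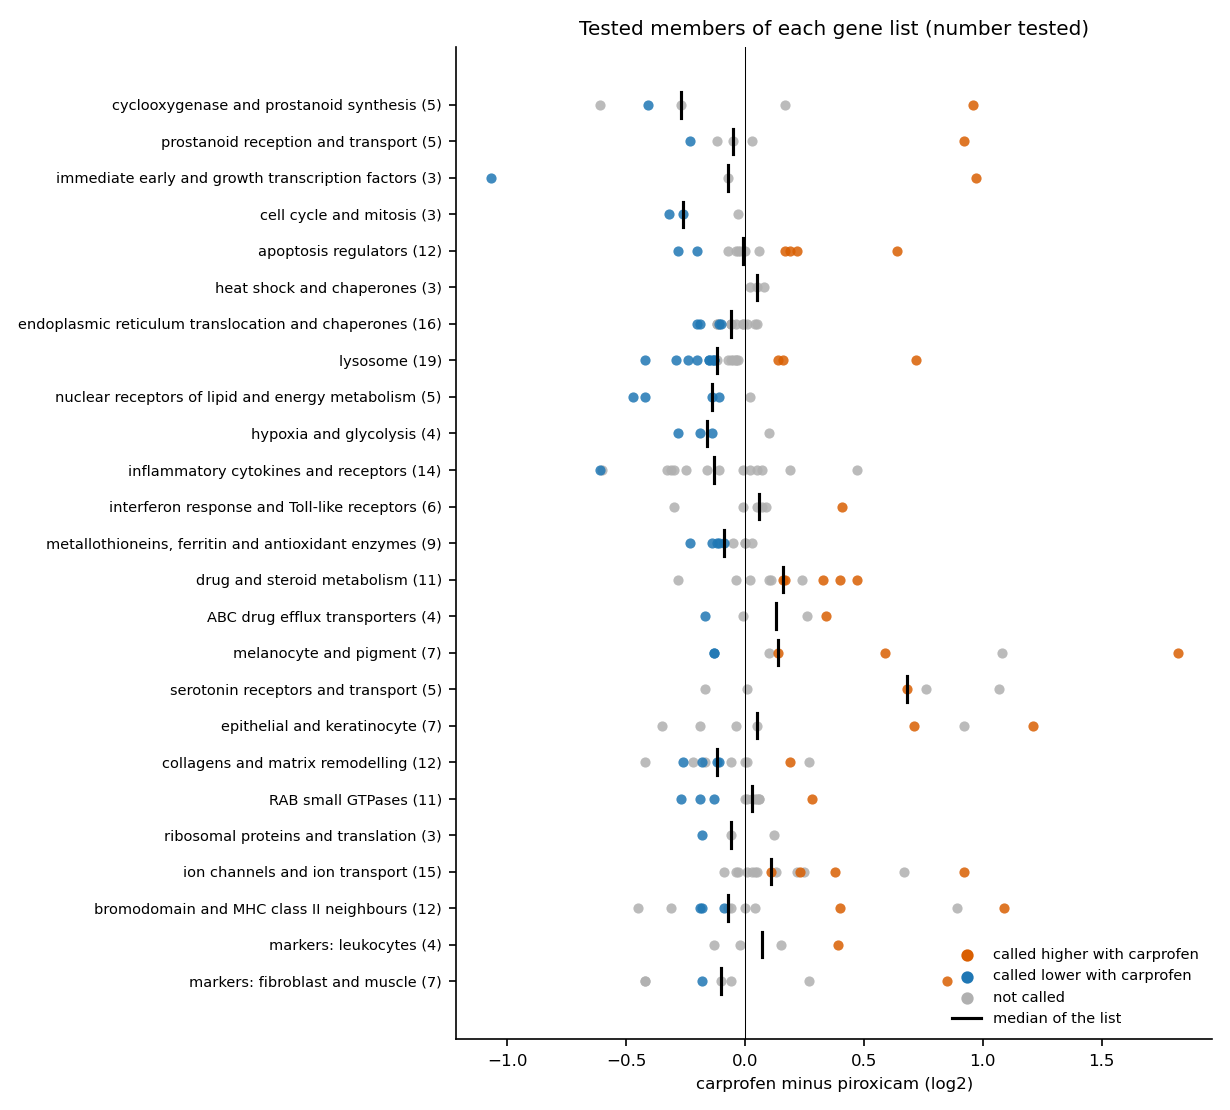
Difference between carprofen and piroxicam (log2, horizontal) of every tested member of each gene list with at least 3 tested members, coloured by call, with a black bar at the list's median. The lysosome list holds 9 called lower and 3 called higher members of 19, and the drug and steroid metabolism list 5 called higher of 11.

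Further genes that met the naming rule fall outside these lists. HGFAC, a serine protease that activates hepatocyte growth factor, read -4.86, -4.85 and -4.83 with carprofen and -6.27, -5.98 and -6.25 with piroxicam, where 2 of 3 arrays were well above background. The difference was 1.32 (SE 0.10, adjusted p = 1.43e-05), and 0.45 with normexp and quantile normalization. SAG, the retinal arrestin, was well above background on all carprofen arrays and on no piroxicam array, and was at least 1.22-fold higher (adjusted p = 0.00118). With normexp and quantile normalization SAG differed by 0.23, below that bound, and its call ended with normexp scaled to the 75th percentile. AANAT, an enzyme of melatonin synthesis, read -4.95, -4.37 and -4.16 with carprofen and -5.13, -5.81 and -5.98 with piroxicam, a difference of 1.15 (SE 0.32, adjusted p = 0.0177). For AANAT the difference was 0.45 with normexp and quantile normalization, and the call ended with normexp scaled to the 75th percentile and on slide 2 alone (adjusted p = 0.0716).

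Among those lower with carprofen were NICN1, KLK1, PODXL, RHBG and ITGB3. NICN1, a subunit of the tubulin polyglutamylase complex, read -2.91, -2.89 and -2.80 with carprofen and -2.18, -2.13 and -2.14 with piroxicam, a difference of -0.71 (SE 0.03, adjusted p = 4e-07). PODXL, a sialomucin of the cell surface, was lower by 0.56 (adjusted p = 0.00104), and the integrin chain ITGB3 by 0.42 (adjusted p = 0.00172). RHBG, an ammonium transporter, was lower by 0.44 (adjusted p = 0.00404). KLK1, the tissue kallikrein that releases kinins, was lower by 0.62 (adjusted p = 0.00222), on 1 of its 2 probes, while the other differed by -0.00.

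Set against the controls, some genes were called in opposite directions with the 2 drugs, MYC, PTGS2 and TGM1 among them. The comparison of carprofen with control called 32.7% of probes and that of piroxicam with control 27.8%. Both use the same 3 controls, which shared a slide with carprofen 1 and with no piroxicam array. The differences are relative to the 75th percentile, and none is given with spike-in scaling. The spiked-in transcripts stood 1.71 to 1.79 above that percentile on the control arrays, 1.37 to 1.40 with carprofen and 1.55 to 1.59 with piroxicam. Scaling to them would raise both differences from control, more so with carprofen. The negative carprofen values of NICN1, CXCL8, PPARD and PLA2G7 would then change direction. MYC differed from control by -0.44 with carprofen (adjusted p = 2.15e-05) and by 0.64 with piroxicam (adjusted p = 4.89e-06). PTGS2 differed by 0.47 and -0.49 (adjusted p = 0.000107 and 0.000108), and TGM1 by 0.60 and -0.61 (adjusted p = 0.000193 and 0.000207). HGFAC (0.65 and -0.67), NICN1 (-0.25 and 0.46), CXCL8 (-0.12 and 0.49) and BCL2L2 (0.13 and -0.50) were also called in both comparisons and in opposite directions. So were CTSS, TNNI3, PPARD, MX1, PLA2G7 and RAB5A.

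On the same scale, BRD2, BIRC5 and ABCC5 were called against control with 1 of the drugs. BRD2 differed by -0.02 with carprofen (adjusted p = 0.59) and by -0.42 with piroxicam (adjusted p = 8.27e-06). BIRC5 differed by -0.33 (adjusted p = 0.000368) and -0.02 (adjusted p = 0.773), and ABCC5 by 0.31 (adjusted p = 0.000227) and -0.03 (adjusted p = 0.54). For VEGFA both values were above 0, at 0.25 and 0.53, and for HTR2B at 1.10 and 0.42, each called. HSP70 differed by 0.42 and 0.38, both called.

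**Figure D5:**
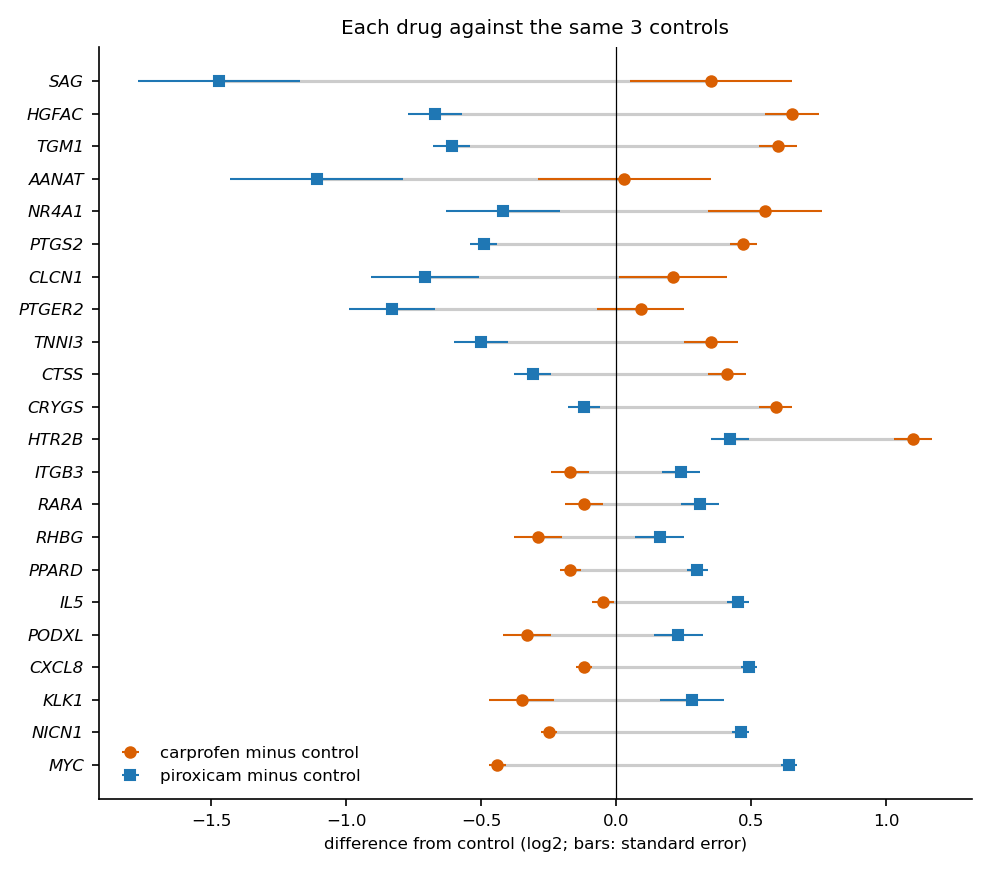
Difference from the same 3 controls (log2, horizontal; bars are standard errors) with carprofen (circles) and piroxicam (squares) for named genes among those with the largest differences between the drugs. MYC lies at -0.44 and 0.64, PTGS2 at 0.47 and -0.49, and HTR2B at 1.10 and 0.42.

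The naming rule also took 4 probes without a gene name. Probe A_11_P0000041102 read -4.86, -4.92 and -4.93 with carprofen and -8.18, -7.69 and -8.14 with piroxicam, where it was not well above background, and was at least 3.21-fold higher with carprofen (adjusted p = 3.91e-07). Probe A_11_P0000026566 was well above background on all 6 arrays and read -4.27, -4.13 and -4.05 against -1.88, -1.77 and -1.91. It was 4.92-fold lower with carprofen (difference -2.30, SE 0.09, adjusted p = 3.04e-07). Its controls, at a mean of -3.04, lay between the drugs. Probe A_11_P000009799 was at least 1.35-fold higher (adjusted p = 7.6e-05), a call that ended with normexp scaled to the 75th percentile, and probe A_11_P123656 was lower by 1.79 (adjusted p = 2.69e-05).

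Many calls of small differences rested on the settings. Of the 205 called genes, 54 were called in the same direction in each of 16 alternatives that changed the block, the scaling, the background correction, the source of the values, the filter or the arrays. Slide 2 alone and the filter for signal above background on all 12 arrays were not among the 16. That filter leaves HGFAC untested. On slide 2 alone, which gives the same difference as the slide block, 46 of the 54 were also called. The 54 include PTGS2, TGM1, HGFAC, BCL2L2, CTSS, TNNI3, CRYGS, BRD2, MX1, ABCC5, KCNA5, CD163 and RAB5A among 28 higher genes, and MYC, NICN1, CXCL8, PPARD, GALNS, PLA2G7, RARA, IL5 and BIRC5 among 26 lower ones. Of 211 genes with more than 1 tested probe, 4 had probes called in opposite directions: ATP2A2, CELA1, TCF4 and VPS52.

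Leaving out 1 array at a time ended the call of 11 of the 78 genes and probes examined one by one, each with an unchanged direction. KITLG lost its call without piroxicam 3 (0.12, adjusted p = 0.0608), and VHL without carprofen 2 (-0.16, adjusted p = 0.0867) or piroxicam 3 (-0.15, adjusted p = 0.092). DLA-DQB1 lost it without piroxicam 1 (adjusted p = 0.0519) or piroxicam 3 (adjusted p = 0.051). AANAT lost it without carprofen 2 or 3 or piroxicam 2 or 3, at differences of 0.98 to 1.09. CYP19A1 lost it without carprofen 2 or 3 or piroxicam 1 or 3 (0.26 to 0.30), as did MLPH (adjusted p = 0.0987 to 0.144). MDM2 lost it without carprofen 1 or 3 or piroxicam 1 or 3 (0.10 to 0.11), and HSP90B1 without carprofen 2 or 3 or piroxicam 3 (-0.10 to -0.09). TXNRD1 lost it without carprofen 2, piroxicam 2 or piroxicam 3 (-0.11 to -0.09). UCP2 and MT2A each lost it in 5 of the 6 cases, the exception being carprofen 3 for both. The others, MYC, PTGS2, TGM1, CXCL8 and BRD2 among them, kept their side of the threshold in all 6 cases.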

How the data were processed

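The deposited scanner files of the one-colour Agilent arrays hold each spot's intensity, which the authors took from Feature Extraction 10.7.3.1, per the file headers, with background subtracted but no scaling between arrays. RNA integrity numbers were above 9.0, per the labels' protocols. The authors' deposited value table, on a log2 scale as judged from its numbers, came from limma 3.24.15 by the submitters' processing notes. Its centring is not given in the sources used here, and it served as an alternative.

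Levels are log2 of the processed signal less the 75th percentile of its array (R 4.3.3, with data.table at version 1.17.8 and limma at 3.58.1). Control and outlier-flagged spots were left out. A probe was tested if every array of 1 or more groups had it well above background, which 31996 of 43603 did. On all 12 arrays 28347 were, and 0 spots were saturated. The number of arrays limits the precision (median SE 0.053). One linear model covered the 12 arrays (lmFit and eBayes, 8 residual degrees of freedom), with two-sided contrasts and Benjamini-Hochberg adjustment over tested probes at 0.05. Slide, which coincides with scan, was a block or a restriction in alternatives. Others changed the scaling, the background correction, the filter, the values or the arrays. Normexp (offset 50) used median signals, since mean signals are not a column of these files. The code was tested on simulated data.

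RefSeq names of the dog assembly UU_Cfam_GSD_1.0, matched by accession, covered 1313 probes and 832 symbols, and the other probes stayed unnamed. Genes were described by a rule. It took the 12 highest and 12 lowest differences called with and without the slide block whose groups did not overlap, the 3 largest called differences of each list, and genes fixed by name, of which HSPA1A was not matched. It added 2 higher and 2 lower unnamed probes. Other genes were singled out after their values were seen. Some genes that the rule took are not reported here. The comparison, the gene lists and the rule were chosen with earlier results of these data known.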

Additional observations from a re-analysis of the deposited data

How the results depend on the processing

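The 12005 called probes, 205 called genes and 316 probes at least 2-fold apart kept within 1.5 times their number in most alternatives, and the exceptions follow. On slide 2 alone, with 2 residual degrees of freedom, the numbers were 4581, 83 and 193. Normexp scaled to the 75th percentile gave 6740, 106 and 42, normexp with quantile normalization gave 135 genes and 39 probes at least 2-fold apart, and the authors' deposited values gave 129 and 76. Spike-in scaling gave 592 probes at least 2-fold apart, and a filter for signal above background on all 12 arrays gave 122. Chosen after seeing the data, slide as a block with normexp and quantile normalization gave 6891, 115 and 31, and leaving out control 3 and piroxicam 3 gave 210 probes at least 2-fold apart. Leaving out 1 array at a time gave 10248 to 11382 probes, 171 to 200 genes and 214 to 466 probes at least 2-fold apart.

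With spike-in scaling the direction turned for HSP90B1 (0.06), UCP2 (0.03), ADM (0.03), MT2A (0.03), TXNRD1 (0.05), ABCC1 (0.00), RHOA (0.02) and MITF (0.05), by the 0.17 that it adds. TXNRD1 also turned in the authors' values (0.02) and with normexp plus quantile normalization (0.01), and DLA-DQB1 with the slide block and normexp (-0.02); the cause was not tested.

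Replicate numbers did not pair the arrays: same-numbered arrays of the drugs deviated together with correlations of -0.06, 0.05 and -0.32. The fit with a replicate block called 10815 probes and 180 genes, and 289 probes at least 2-fold apart.

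Dim probes limit the larger differences, 4 arrays limit the fit within slide 2, and most probes have no name here.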
